A study of Mus musculus with 10 samples.

Results

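The 10 genes described here belong to the extracellular matrix and were followed across a mouse model of ischaemic retinopathy: Fn1 (fibronectin), the nidogen genes Nid1 and Nid2, the laminin chain genes Lama4, Lama5, Lamb1 and Lamc1, Hspg2 (perlecan), Tnc (tenascin C) and Sparc. They were taken by symbol, each from the 1 transcript cluster (the probe set of a transcription unit on the array) annotated to that symbol alone, and make up 10 of the 30063 genes with such a cluster. All 10 passed the filter on low values that left 23255 genes for testing. RNA from the retina of C57BL/6JJmsSlc mice was read on 10 whole-transcript arrays (Affymetrix) that form 5 groups of 2. The first group was day 17 retina with oxygen-induced retinopathy (OIR) and ISOX DUAL, known as an inhibitor of bromodomains, injected into the vitreous. The second had OIR and an injection of phosphate-buffered saline (PBS), and the third had OIR without an injection, both at day 17. The remaining groups were untreated retina at postnatal day 17 and at day 7. The 3 OIR groups share the same exposure, 75% oxygen for 5 days from day 7 followed by air, and the injections were given when the oxygen ended. No dose is stated, and the labels do not say whether an array held 1 animal or a pool, so the p-values rest on how far 2 arrays of a group lay apart, which may reflect technical spread only.

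Fibronectin, laminins, nidogens and perlecan are matrix glycoproteins and proteoglycans that cells lay down around and beneath themselves. A laminin is a trimer of an alpha, a beta and a gamma chain that polymerises into the sheet of a basement membrane, and nidogens and perlecan tie that sheet to the collagen IV network. In the retina such sheets surround the vessels and form the inner limiting membrane against the vitreous, and fibronectin laid down by astrocytes is a track along which growing vessels advance. Cells hold on to laminin and fibronectin through integrins, dystroglycan and syndecans. Tenascin C and SPARC are matricellular proteins, which bind cells and other matrix proteins and modulate adhesion rather than build the scaffold.

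Clusters brighter than 95% of the negative control probes made up 8.00% to 9.97% of an array. Levels are given as log2 array signal, which compares arrays within a gene but not one gene with another. Every member lay above the array's negative control median on every array, apart from Nid2 and Lama4 on 1 day 7 array each. Only Sparc also exceeded the 95th percentile of the negative controls, at 8.31 to 8.64, on every array. Fn1 exceeded it except in untreated day 17 retina, and the other members lay below it on every array. Rod marker genes, which define the tissue, had a mean level of 9.18 to 11.01 over the arrays. Lens crystallin and fibre genes stood apart on the second ISOX DUAL array, with a mean of 6.48 and 8.23 on the ISOX DUAL arrays and 5.61 to 6.33 on the others. The values come from whole retina, in which more cells of a type and more RNA per cell cannot be told apart.

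The first comparison asks which matrix genes differ in retinopathy from untreated retina of the same day. Uninjected OIR retina had higher levels of fibronectin, both nidogens and the laminin chains alpha4 and beta1. Fn1 rose 4.02-fold, Nid1 2.64-fold, Lama4 2.42-fold, Lamb1 1.71-fold and Nid2 1.59-fold (n = 2 arrays per group). These 5 of 10 members were higher at an adjusted p under 0.05, and 0 were lower. Over all genes tested, 0.456% were higher by the same rule. The members were chosen with earlier results of these data known. Shares and medians set beside those of all genes, here and in the comparisons below, are therefore a description and not a test of the set. The median log2 difference was 0.75 over the 10 members and -0.04 over all genes tested. On all 10 members both OIR arrays lay above both untreated arrays, a separation that 9.44% of all genes tested showed in that direction.

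**Figure D1:**
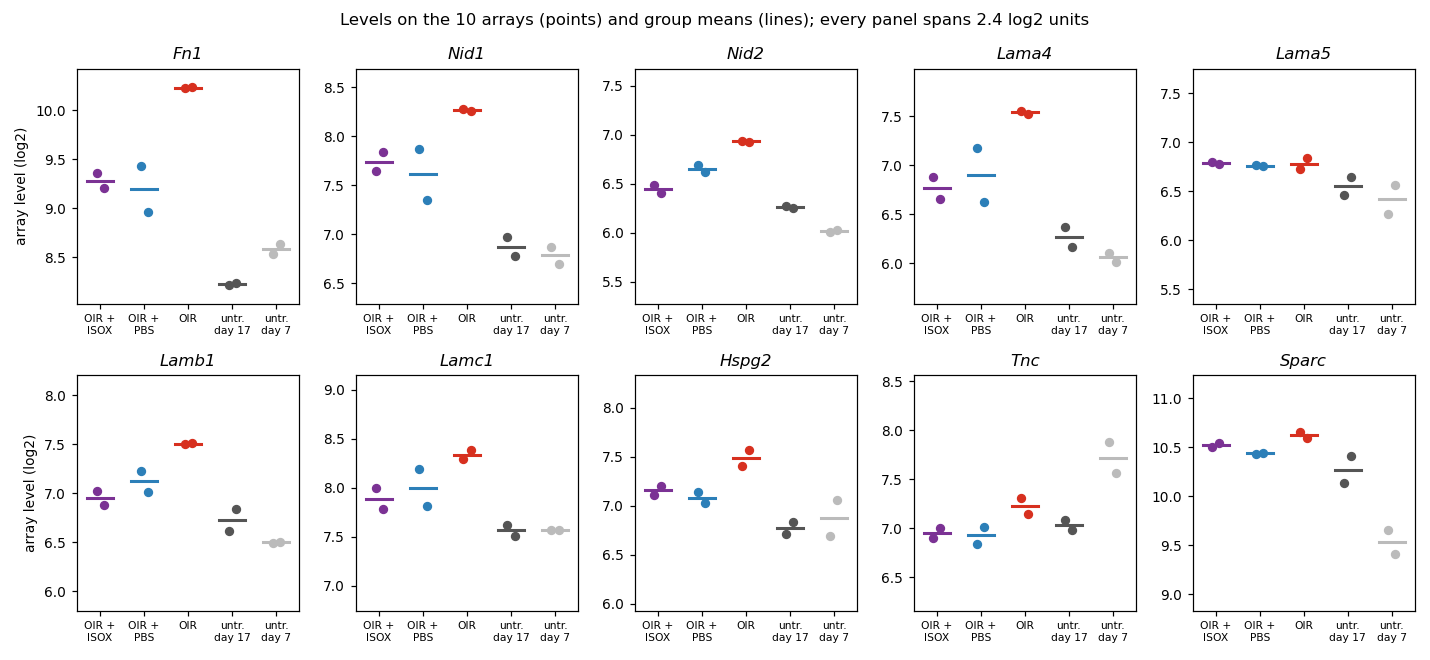
Level of each of the 10 members on every array (points, log2 signal on the vertical axis) with the group mean (line), for OIR with ISOX DUAL, OIR with PBS, uninjected OIR, untreated day 17 and untreated day 7 retina from left to right. Fn1 reached 10.23 and 10.24 in uninjected OIR, against 8.21 and 8.23 in untreated day 17 retina, whereas Tnc and Sparc separated mainly by day.

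Fn1, whose product is assembled into fibrils through integrins, was at 9.36 and 9.20 with ISOX DUAL, 9.43 and 8.96 with PBS, 10.23 and 10.24 in uninjected OIR, 8.21 and 8.23 in untreated day 17 retina and 8.53 and 8.63 in untreated day 7 retina. The 5 groups did not overlap except for the injected groups, whose arrays interleaved. The log2 difference between uninjected OIR and untreated day 17 retina was 2.01 ± 0.15 (standard error, SE), with a limma adjusted p of 0.00526.

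The nidogens link laminin to collagen IV and perlecan. Nid1 was at 7.64 and 7.84 with ISOX DUAL, 7.87 and 7.35 with PBS, 8.28 and 8.26 in uninjected OIR, 6.97 and 6.78 in untreated day 17 retina and 6.87 and 6.70 at day 7. Nid2 had a narrower range, at 6.49 and 6.40 with ISOX DUAL, 6.69 and 6.61 with PBS, 6.94 and 6.93 in uninjected OIR, 6.27 and 6.25 in untreated day 17 retina and 6.01 and 6.03 at day 7. Both rose in OIR, Nid1 by 1.40 ± 0.17 log2 (limma adjusted p = 0.0261) and Nid2 by 0.67 ± 0.08 (adjusted p = 0.0241). The widest gap within any group was smallest for Nid2, at 0.08 log2, and those of the other members ran from 0.23 to 0.55. In single groups some other members had closer arrays than Nid2.

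Lama4, Lamb1 and Lamc1 encode the alpha4, beta1 and gamma1 chains, which together form the trimer characteristic of vessel basement membranes. Lama4 was at 6.88 and 6.65 with ISOX DUAL, 7.18 and 6.63 with PBS, 7.56 and 7.53 in uninjected OIR, 6.37 and 6.17 in untreated day 17 retina and 6.10 and 6.02 at day 7. It rose by 1.27 ± 0.18 log2 in OIR (limma adjusted p = 0.0323). Lamb1 was at 7.03 and 6.88 with ISOX DUAL, 7.22 and 7.02 with PBS, 7.50 and 7.51 in uninjected OIR, 6.62 and 6.84 in untreated day 17 retina and 6.49 and 6.51 at day 7. Its rise in OIR was 0.78 ± 0.12 log2 (limma adjusted p = 0.0383). Lamc1, the gamma chain of most laminins, was at 7.99 and 7.78 with ISOX DUAL, 8.19 and 7.82 with PBS, 8.29 and 8.38 in uninjected OIR, 7.62 and 7.51 in untreated day 17 retina and 7.57 and 7.57 at day 7. Its difference of 0.77 ± 0.14 log2 was as large as that of Lamb1 and did not pass the threshold (limma adjusted p = 0.083).

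Lama5 encodes the other alpha chain of vascular laminins and is also a chain of epithelial basement membranes. It was at 6.80 and 6.78 with ISOX DUAL, 6.76 and 6.76 with PBS, 6.73 and 6.84 in uninjected OIR, 6.46 and 6.64 in untreated day 17 retina and 6.27 and 6.57 at day 7. All 6 OIR arrays, injected or not, lay between 6.73 and 6.84, and the difference of uninjected OIR from untreated retina was 0.23 log2 (95% interval -0.05 to 0.51, limma adjusted p = 0.955). Its interval lies below that of Lama4, which was 0.86 to 1.69. The difference between the 2 chains was not tested.

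Hspg2, the heparan sulfate proteoglycan perlecan, was at 7.11 and 7.21 with ISOX DUAL, 7.14 and 7.03 with PBS, 7.41 and 7.57 in uninjected OIR, 6.71 and 6.83 in untreated day 17 retina and 6.69 and 7.06 at day 7. Its OIR difference was 0.72 ± 0.14 log2 without passing (limma adjusted p = 0.0991). Sparc, which binds collagen, was at 10.50 and 10.54 with ISOX DUAL, 10.43 and 10.44 with PBS, 10.66 and 10.59 in uninjected OIR, 10.14 and 10.40 in untreated day 17 retina and 9.65 and 9.40 at day 7. Tnc was at 6.91 and 7.01 with ISOX DUAL, 6.84 and 7.02 with PBS, 7.31 and 7.15 in uninjected OIR, 7.09 and 6.98 in untreated day 17 retina and 7.88 and 7.56 at day 7. The day 7 arrays were the lowest for Sparc and the highest for Tnc. In OIR neither passed, with log2 differences of 0.35 ± 0.12 for Sparc (limma adjusted p = 0.601) and 0.20 ± 0.13 for Tnc (adjusted p = 0.999).

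The calls in OIR rest on few arrays, while the sizes moved little. Leaving out the first OIR array or either untreated day 17 array left 0 of 10 members past the threshold, and leaving out the second OIR array left Fn1 alone. Arrays of other groups act through the shared spread: Fn1 alone passed without either ISOX DUAL array, Fn1, Nid1 and Lama4 without either PBS array, and Fn1, Nid1 and Nid2 without either day 7 array. Over these fits the Fn1 difference ran from 2.00 to 2.02 log2, Nid1 from 1.30 to 1.49, Lama4 from 1.17 to 1.37, Lamb1 from 0.66 to 0.89 and Nid2 from 0.66 to 0.68. Lama4 lost its call with quantile normalization (adjusted p = 0.0514, in a range of 0.0147 to 0.271 over all alternatives).

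**Figure D2:**
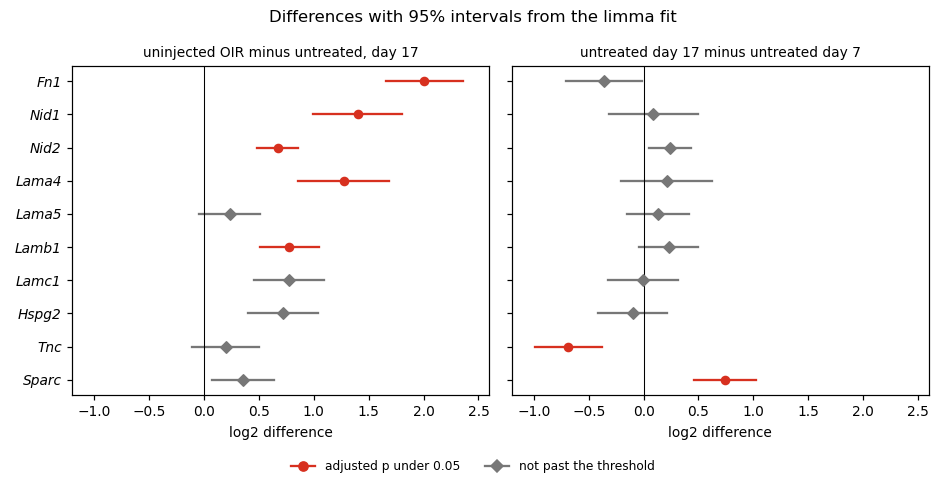
Log2 differences of the 10 members with 95% intervals from the limma fit (horizontal axis), for uninjected OIR minus untreated day 17 retina (left) and untreated day 17 minus untreated day 7 retina (right). Red circles are past an adjusted p of 0.05: Fn1, Nid1, Nid2, Lama4 and Lamb1 on the left, and Tnc and Sparc on the right.

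RefSeq promoter sequences (GRCm38.p6) were at hand for 6 of the 10 members, Nid1, Lama5, Lamb1, Hspg2, Tnc and Sparc. The stretches of Nid1, Lamb1 and Hspg2 before the annotated gene are shown, 5′ to 3′, because these 3 had the largest OIR differences among the 6. Capitals mark 3 motifs searched on both strands: the core bound by hypoxia-inducible factors (ACGTG or GCGTG), the AP-1 site TGANTCA and the TEAD core GGAATG.
Nid1, chr13:13437352-13437601, plus strand: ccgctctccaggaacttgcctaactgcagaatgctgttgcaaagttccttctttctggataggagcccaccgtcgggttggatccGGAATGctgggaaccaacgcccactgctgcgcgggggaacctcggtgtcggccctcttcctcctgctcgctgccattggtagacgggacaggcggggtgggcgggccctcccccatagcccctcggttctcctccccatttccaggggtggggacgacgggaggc
Lamb1, chr12:31265043-31265145, plus strand: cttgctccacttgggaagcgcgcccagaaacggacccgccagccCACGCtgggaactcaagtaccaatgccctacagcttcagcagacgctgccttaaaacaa
Hspg2, chr4:137468553-137468750, plus strand: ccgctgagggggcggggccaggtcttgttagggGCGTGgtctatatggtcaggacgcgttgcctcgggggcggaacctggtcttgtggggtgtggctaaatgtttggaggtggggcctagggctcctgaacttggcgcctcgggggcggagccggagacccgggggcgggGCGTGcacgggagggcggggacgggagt
In the 250 bases before the start given in the table, Hspg2 held 2 hypoxia cores (GCGTG) and Lamb1 held 1 (CACGC, its reverse complement), while the windows of Nid1, Lama5, Tnc and Sparc held none. Of 32851 promoter windows of that length, 38.6% held at least 1 such core, beside which the 2 of 6 members can be read; a match is a description and not a site of binding. The capitals in Nid1 are 1 TEAD core, which 12.6% of all windows held. No AP-1 site, held by 6.75% of all windows, was found in any window of these 6 members, of which Tnc had 2 windows.

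Further genes of the same structures were read from 4 lists, chosen with earlier results of these data known. Beside their counts, 0.456% of all genes tested were higher in uninjected OIR than in untreated day 17 retina. Among the laminin and fibronectin receptors, 2 of 19 tested were higher in OIR and 0 lower, with 16 of 19 differences positive and a median of 0.34 log2, against -0.04 over all genes tested. Both encode subunits of a laminin receptor: Itgb1 (integrin beta1) was at 9.18 and 8.99 in uninjected OIR, against 8.30 and 8.31 in untreated day 17 retina, and rose 1.72-fold (limma adjusted p = 0.0241). Itga6 (integrin alpha6) was at 6.92 and 6.97 in uninjected OIR, against 6.27 and 6.19 in untreated retina, and rose 1.64-fold (adjusted p = 0.0322). Integrin beta1 is also the beta subunit of the main fibronectin receptor.

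Of 6 other laminin chains tested, 0 passed in either direction, 2 had a positive difference, and the range was -0.08 to 0.21 log2. The largest was that of Lamb2, a beta chain of mature basement membranes, at 0.21 ± 0.18 (limma adjusted p = 0.999). Lama2, Lama3 and Lamb3 lay below the negative control median on all 10 arrays, so a change in them could have been missed.

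Among 18 other basement membrane genes, 0 passed, with differences from -0.21 to 1.38 log2 and a median of 0.04. Pxdn (peroxidasin, which crosslinks collagen IV) had the smallest p, at 7.86 and 8.08 in uninjected OIR, against 7.12 and 7.28 in untreated retina (0.77 ± 0.15 log2, limma adjusted p = 0.107). Among 18 other glycoprotein and matricellular genes, 3 were higher and 0 lower: Ccn1, an integrin-binding matricellular gene, rose 3.83-fold, Thbs1 (thrombospondin 1) 2.30-fold and Tgfbi 1.75-fold (limma adjusted p of 0.0212, 0.0291 and 0.0383). Tgfbi was at 5.72 and 5.90 in untreated day 17 retina, near the negative control medians of 5.83 and 5.84, which limits its fold. The median difference over the list was 0.01 log2.

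Markers of the vessel wall were read beside these results. Of 9 endothelial markers, 8 had a positive OIR difference and 0 passed, with a median of 0.28 log2. Their mean level was 7.20 and 7.02 in uninjected OIR, against 6.84 and 6.71 in untreated day 17 retina. Of 10 pericyte and smooth muscle markers, 9 had a positive difference and 0 passed (median 0.38 log2), with mean levels of 7.61 and 7.40 in uninjected OIR, against 7.02 and 7.02 in untreated retina. All 9 endothelial markers, and all pericyte markers but Myh11, lay above the negative control median on at least 1 array. Of 7 astrocyte markers 3 had a positive and 4 a negative difference (median -0.04 log2), and 2 were higher, Igfbp5 (0.89 ± 0.12 log2, limma adjusted p = 0.0306) and Gfap (2.39 ± 0.18, adjusted p = 0.00526). Müller glia markers had a median of -0.32 log2 over 9 genes, with 1 higher and 1 lower. Pigment epithelium markers were negative on 8 of 8 (median -0.50), lens markers on 11 of 11 (median -0.14) and ganglion cell markers on 6 of 7 (median -0.32), with 0 past the threshold in each. Best1, Tyr and Mlana (pigment epithelium) and Lim2 (lens) lay below the negative control median on all 10 arrays. Lens genes averaged 5.61 and 5.78 in uninjected OIR and 5.70 and 5.98 in untreated day 17 retina, near those medians. Signs in both lists are therefore partly read near background, here and in the comparisons below. The part of these cells in the members' rise was not tested.

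The inhibitor was next compared with its vehicle, both groups having OIR and an injection. No member passed (0 of 10, against 0% of all genes tested), and 1 of 10 had an unadjusted p under 0.05, against 1.02% of all genes by limma. For Fn1 the log2 difference between ISOX DUAL and PBS was 0.08 (95% interval -0.26 to 0.43), for Nid1 0.13 (-0.27 to 0.54), for Lama4 -0.14 (-0.55 to 0.27), for Lamb1 -0.17 (-0.44 to 0.10) and for Lamc1 -0.12 (-0.44 to 0.21). Nid2 was the member with the unadjusted p under 0.05: 6.49 and 6.40 with ISOX DUAL, against 6.69 and 6.61 with PBS, a difference of -0.21 (-0.40 to -0.02, limma adjusted p = 1). Hspg2 (0.08), Sparc (0.08), Lama5 (0.03) and Tnc (0.03) differed by no more than their standard errors of 0.12 to 0.14. Median differences were 0.03 log2 over the members and 0.01 over all genes tested.

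Arrays of both groups were separate for 3 members. Nid2 was lower on both ISOX DUAL arrays, as were 11.5% of all genes, and Lama5 and Sparc were higher on both, as were 16.6% of all genes. The PBS arrays differed from each other: the first exceeded the second by 0.47 log2 for Fn1, 0.53 for Nid1, 0.55 for Lama4 and 0.37 for Lamc1, and for each of these 4 genes that was the widest gap within any group. The mean of all 10 members was 7.67 and 7.63 on the ISOX DUAL arrays and 7.78 and 7.56 on the PBS arrays.

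Lens markers had a mean level of 6.48 and 8.23 with ISOX DUAL, against 6.06 and 6.33 with PBS, and 11 of 11 differences were positive (median 0.88 log2). Microglia and macrophage markers were positive on 9 of 9 (median 0.13), whereas ganglion cell markers were negative on 7 of 7 (median -0.39), pericyte and smooth muscle markers on 9 of 10 (median -0.07) and endothelial markers on 8 of 9 (median -0.05). In these lists 0 markers passed, and their part in the result was not tested. Over the fits that left out 1 array in turn, the array with the highest lens level included, 0 of 10 members passed, and the Fn1 difference ran from -0.15 to 0.32 log2. Among related genes 0 passed in each of the 4 lists. The smallest p in each list belonged to Lamb3 (a laminin beta chain, below the negative control median on all arrays, so no difference is given), Fbln1 (fibulin 1, -0.57 ± 0.34), Sparcl1 (a relative of SPARC, -0.23 ± 0.19) and Itgav (integrin alphaV, 0.20 ± 0.12).

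**Figure D3:**
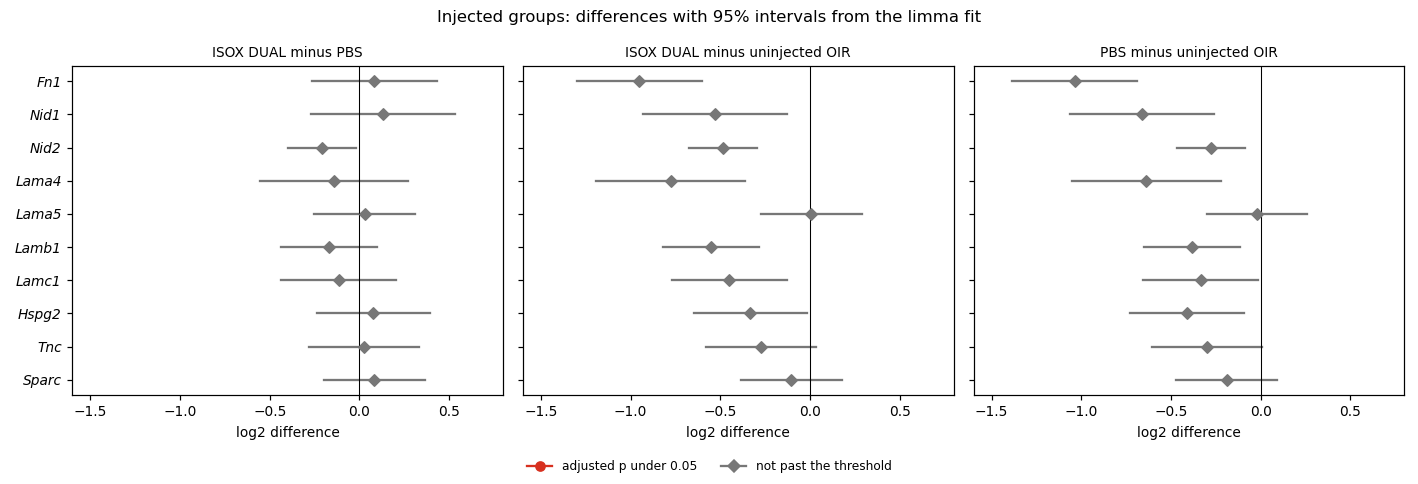
Log2 differences of the 10 members with 95% intervals from the limma fit (horizontal axis), for ISOX DUAL minus PBS (left), ISOX DUAL minus uninjected OIR (middle) and PBS minus uninjected OIR (right). The Fn1 interval on the left (-0.26 to 0.43) stayed short of its difference from uninjected OIR. That was -0.95 with ISOX DUAL and -1.04 with PBS. For Nid2, Lamb1, Lamc1, Lama5 and Sparc the interval on the left included the gene's own PBS difference on the right. For the other members it did not. No member passed the threshold in any panel.

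Either injection was then set against uninjected OIR. These comparisons share the uninjected arrays, so their values are given side by side and are not independent of each other. Fn1 was at 9.36 and 9.20 with ISOX DUAL and 9.43 and 8.96 with PBS, against 10.23 and 10.24 without an injection, and the arrays did not overlap. Its log2 difference was -0.95 ± 0.15 for ISOX DUAL (limma adjusted p = 0.268) and -1.04 ± 0.15 for PBS (adjusted p = 0.186). Lama4 differed by -0.78 ± 0.18 with ISOX DUAL and -0.64 ± 0.18 with PBS, and Nid1 by -0.53 ± 0.17 with ISOX DUAL and -0.66 ± 0.17 with PBS. Nid2 differed by -0.49 ± 0.08 with ISOX DUAL and by -0.28 ± 0.08 with PBS, and Lamb1 by -0.55 ± 0.12 with ISOX DUAL and by -0.38 ± 0.12 with PBS. ISOX DUAL gave differences of -0.45 for Lamc1, -0.33 for Hspg2, -0.27 for Tnc and -0.11 for Sparc. PBS gave -0.34 for Lamc1, -0.41 for Hspg2, -0.30 for Tnc and -0.19 for Sparc. For Lama5 the difference was 0.01 with ISOX DUAL and -0.02 with PBS.

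No member passed in either comparison (0 of 10 each, against 0.0043% of all genes tested for ISOX DUAL and 0% for PBS). At an unadjusted p under 0.05 there were 7 of 10 members in each, against 4.29% of all genes in each. On 9 of 10 members, all but Lama5, both injected arrays lay below both uninjected arrays, for ISOX DUAL as for PBS. Over all genes, 15.4% were separate in that direction for ISOX DUAL and 15.3% for PBS. The median difference of the members was -0.47 log2 with ISOX DUAL and -0.36 with PBS, against 0.02 and 0.01 over all genes tested.

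Pericyte and smooth muscle markers were read beside these values: 10 of 10 had a negative difference from uninjected OIR with ISOX DUAL (median -0.36 log2) and 10 of 10 with PBS (median -0.29), with 0 past the threshold. Their mean level was 7.10 and 7.04 with ISOX DUAL and 7.22 and 7.10 with PBS, against 7.61 and 7.40 without an injection. For endothelial markers 6 of 9 differences were negative with ISOX DUAL and 5 of 9 with PBS. Ganglion cell markers were negative on 7 of 7 with either injection, with larger medians of -0.99 log2 for ISOX DUAL and -0.56 for PBS. Lens markers were positive on 11 of 11 with either injection, with medians of 1.10 for ISOX DUAL and 0.30 for PBS, and 0 markers of these lists passed. The part of these cells in the members' differences was not tested. In the related lists 0 genes passed. Ccn1 had the smallest p of the matricellular genes, at 7.18 and 6.79 with ISOX DUAL and 7.01 and 7.03 with PBS, against 9.02 and 8.32 without an injection (limma adjusted p of 0.215 and 0.186). Itgb1 had the smallest p of the receptors, with differences of -0.45 ± 0.10 for ISOX DUAL and -0.41 ± 0.10 for PBS. In the lists of laminin chains and basement membrane genes the smallest p belonged to Lama2 (laminin alpha2, below the negative control median on all arrays, so no difference is given), Fbln1 with ISOX DUAL (-0.98 ± 0.34) and Bgn (biglycan) with PBS (-0.83 ± 0.40).

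**Figure D4:**
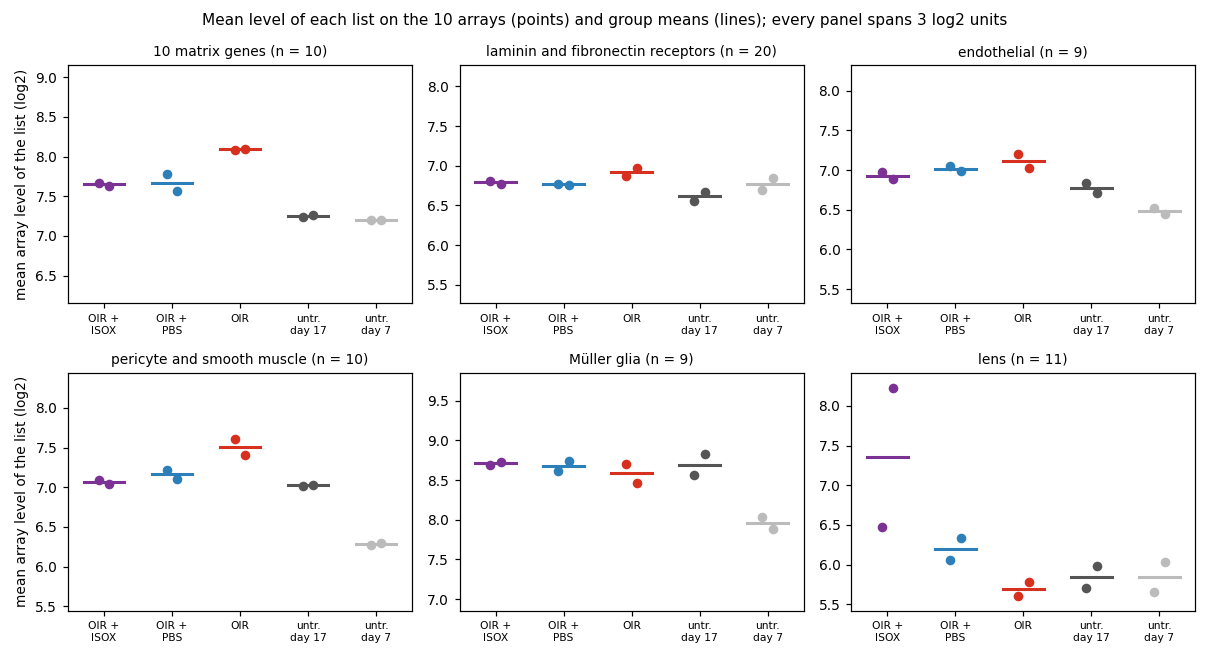
Mean log2 level of 6 gene lists on every array (points, vertical axis) with the group mean (line), for OIR with ISOX DUAL, OIR with PBS, uninjected OIR, untreated day 17 and untreated day 7 retina from left to right. The 10 members averaged 7.56 to 7.78 on the injected arrays, 8.09 and 8.10 in uninjected OIR and 7.20 to 7.26 on the untreated arrays, and lens genes reached 8.23 on 1 ISOX DUAL array.

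Injected OIR retina was also set against untreated retina of day 17, comparisons that share the untreated arrays with each other and with the first. Fn1 differed by 1.06 ± 0.15 log2 with ISOX DUAL (limma adjusted p = 0.144) and by 0.97 ± 0.15 with PBS (adjusted p = 0.32), and neither passed. Nid1 differed by 0.87 ± 0.17 with ISOX DUAL and 0.74 ± 0.17 with PBS, Lama4 by 0.50 ± 0.18 with ISOX DUAL and 0.64 ± 0.18 with PBS, and Nid2 by 0.18 ± 0.08 with ISOX DUAL and 0.39 ± 0.08 with PBS. With ISOX DUAL the differences were 0.22 for Lamb1, 0.32 for Lamc1, 0.39 for Hspg2, 0.25 for Sparc and 0.24 for Lama5. With PBS they were 0.39 for Lamb1, 0.44 for Lamc1, 0.31 for Hspg2, 0.16 for Sparc and 0.21 for Lama5. Tnc was the member with negative differences, at -0.08 with ISOX DUAL and -0.10 with PBS.

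Of the 10 members 0 passed with ISOX DUAL (0.0172% of all genes did) and 0 with PBS (0% of all genes did). At an unadjusted p under 0.05 there were 5 of 10 with ISOX DUAL, against 8.46% of all genes, and 6 of 10 with PBS, against 9.14%. Both injected arrays lay above both untreated arrays on 9 of 10 members with each injection, Tnc being the exception, against 20.6% of all genes with ISOX DUAL and 19.7% with PBS. The median difference was 0.28 log2 with ISOX DUAL and 0.39 with PBS, against -0.01 and -0.03 over all genes tested. Ganglion cell markers were negative on 7 of 7 with either injection (median -1.23 log2 with ISOX DUAL, -0.86 with PBS) and pigment epithelium markers on 8 of 8 (median -0.66 with ISOX DUAL, -0.64 with PBS). Lens markers were positive on 11 of 11 (median 0.99 with ISOX DUAL, 0.14 with PBS), and endothelial markers on 8 of 9 with ISOX DUAL and 9 of 9 with PBS. The part of these cells in the members' differences was not tested. In the related lists 0 genes passed. The smallest p values belonged to Lama2 (below background as above, with no difference given), Agrn (agrin, 0.89 ± 0.24 with ISOX DUAL), Pxdn (0.47 ± 0.15 with PBS), Tgfbi (0.77 ± 0.12 with ISOX DUAL, 0.72 ± 0.12 with PBS), Itga6 (0.48 ± 0.10 with ISOX DUAL) and Itgb1 (0.37 ± 0.10 with PBS). Tgfbi was near the negative control median in untreated retina, as above.

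The last comparison follows maturation without treatment. Tnc was lower and Sparc higher at day 17 than at day 7. Tnc, abundant in developing tissue, was at 7.09 and 6.98 at day 17, against 7.88 and 7.56 at day 7. That is a difference of -0.69 ± 0.13 log2, or 1.61-fold lower (limma adjusted p = 0.0155). Sparc was at 10.14 and 10.40 at day 17, against 9.65 and 9.40 at day 7, and rose 1.67-fold (limma adjusted p = 0.00811). These were 2 of 10 members past the threshold, against 10.6% of all genes tested. Tnc lost its call without the second untreated day 17 array (adjusted p = 0.0627) or the first day 7 array (adjusted p = 0.0538), and its adjusted p ran from 0.00268 to 0.158 over all alternatives.

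The other 8 members did not pass by day. Fn1 was at 8.21 and 8.23 at day 17, against 8.53 and 8.63 at day 7, with no overlap and a difference of -0.36 ± 0.15 log2 (limma adjusted p = 0.202). The difference of Nid2 was 0.24 ± 0.08 log2 (adjusted p = 0.115). Differences of Lamb1 (0.23), Lama4 (0.21), Lama5 (0.13), Nid1 (0.09), Lamc1 (-0.01) and Hspg2 (-0.10) did not pass either. The median was 0.11 log2 over the members and 0.01 over all genes tested.

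Other matrix genes were also read by day, and calls in these lists fell in both directions. Over all genes tested, 10.6% were called by day in either direction, a share near that of the basement membrane and laminin chain lists. Vtn (vitronectin, counted among the pericyte markers as well) was 9.18-fold higher at day 17, Sparcl1 3.32-fold, Tnr (tenascin R) 2.06-fold and Spock3 1.76-fold, so 4 of 18 glycoprotein and matricellular genes were higher and 0 lower. Of the basement membrane genes 0 of 18 were higher and 2 lower, Agrn at 2.46-fold and Pxdn at 2.43-fold. Of the laminin chains 0 of 6 were higher and 1 was lower, Lama1 (alpha1), at 6.62 and 6.67 at day 17, against 7.12 and 7.46 at day 7. Among receptors 2 of 19 were higher and 6 lower. Itga3 (integrin alpha3) was 1.89-fold lower, Itga6 1.45-fold and Itgb1 1.42-fold. Itga2 (integrin alpha2) was at 5.19 and 5.21 at day 17, under the negative control medians, against 6.53 and 6.89 at day 7, so no fold is given.

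Cell type markers also differed between the days. Rod markers averaged 10.89 and 10.92 at day 17, against 9.92 and 9.18 at day 7, and pericyte and smooth muscle markers 7.02 and 7.02 at day 17, against 6.28 and 6.29 at day 7. The pericyte and smooth muscle means include Vtn, which alone differed by 3.20 log2, while the median difference of that list was 0.39. Of the endothelial markers 3 of 9 were higher at day 17 and Kdr was lower, beside the 10.6% of all genes called by day. The part of these cells in the changes of Tnc and Sparc was not tested.

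Across the 10 arrays most members varied together. Pearson correlations are given as a description, since the arrays share groups and the levels share the groups' differences. Lama4 and Lamc1 had r = 0.98 over 10 arrays and 0.99 over the 8 day 17 arrays, and Nid2 and Lamb1 0.98 and 0.97. Fn1 and Nid1 had 0.95 over 10 arrays and 0.97 over 8. Fn1 with Lama5 had 0.68 over 10 arrays and 0.73 over 8, with Sparc 0.60 and 0.84, and with Tnc -0.18 and 0.43. Sparc followed other members more closely, with r = 0.82 for Nid2 and 0.81 for Lamb1 over 10 arrays, about that of Hspg2 with Nid2 (0.82), and 0.88 for Hspg2 over the 8 day 17 arrays. The range over the arrays was widest for Fn1, at 2.02 log2, and narrowest for Lama5, at 0.57.

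The genes outside the members whose levels followed Fn1 most closely over the 10 arrays, of 16077 searched, were Gys1 (glycogen synthase, r = 0.988), Lcp1 (plastin 2, 0.979), Wwtr1 (the transcriptional coactivator TAZ, 0.979), Msn (moesin, 0.976) and Adgrg6 (an adhesion receptor, 0.976). For the mean of the 10 members, each centred, they were Apln (apelin, a peptide of vessel tip cells, 0.990), Lcp1 (0.983), Gys1 (0.978), Adm (adrenomedullin, 0.974) and Lad1 (ladinin, 0.973). Apln, Adm and Adgrg6 lay below the negative control median on 4 arrays each and Lcp1 on 3.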

How the data were processed

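RNA of whole retina was hybridised to 10 whole-transcript arrays (Affymetrix), and the sample titles gave 5 groups of 2. The deposited values are log2 signals per transcript cluster. Per the labels, RNA was extracted with Trizol and labelled with a whole-transcript kit. No further normalization was applied; which software summarized the probes is not given in the sources used here. The number of arrays limits the precision.

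Of 65956 clusters, 30604 carried 1 gene symbol, 2146 several and 33206 none. Symbols were updated through RefSeq. Where a gene had several single-symbol clusters, that with the highest mean stood for it. Genes were tested where at least 2 arrays exceeded the array's 30th percentile of clusters. Group means were fitted over all 10 arrays with limma 3.58.1 in R 4.3.3 (5 residual degrees of freedom), with Benjamini-Hochberg adjustment over 23255 genes and a threshold of 0.05. The procedure was tested on simulated data with noise independent between genes, which does not gauge how reliable the calls made here are.

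The members and the gene lists were chosen with earlier results of these data known. All members were named in every comparison. From each related list the 4 genes of smallest p among those past the threshold were named, or the 1 of smallest p where none passed; the 5 genes most like Fn1 and the members' mean were named by Pearson r. Gfap, Igfbp5 and Kdr fall outside this rule and were chosen after their values were seen. Alternatives covered normalization, filters, weights, the variance prior, the cluster choice, the arrays fitted, the array number as a block and each array left out.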

Additional observations from a re-analysis of the deposited data

How the results depend on the processing

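Directions held for every called member under all alternatives run, and calls did not. Only quantile normalization and leaving out an array of a compared group altered a member's difference itself. Arrays of called members did not overlap between the groups, so leaving out 1 array could not turn the sign. The held directions are therefore no test of robustness. The count of 5 of 10 members in uninjected OIR against untreated day 17 retina was 5 with an intensity trend, the mean of a gene's clusters, no filter or a stricter filter, 4 with quantile normalization, 1 with array weights and 0 when only the 4 arrays compared were fitted, which leaves fewer arrays to estimate the spread. Leaving out each array in turn gave 0 to 3. Fn1 passed in 15 of 19 alternatives, with adjusted p from 0.00169 to 0.129. For untreated day 17 against day 7 retina, the count of 2 was 1 with array weights, 0 with only the 4 arrays compared and 1 to 2 with an array left out. The cause of the changes with array weights was not tested.

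The array numbers were not taken to pair the samples, since the differences between second and first arrays did not correlate above 0.1 for every pair of groups. They correlated at 0.40 between the injected groups and at 0.58 to 0.81 among the 3 groups without an injection, but at -0.41 to -0.06 between injected and uninjected groups. With the number as a replicate block, 4 of 10 members passed in uninjected OIR against untreated day 17 retina (Lamb1 at an adjusted p of 0.0578, in a range of 0.0135 to 0.481 over all alternatives) and 2 of 10 in day 17 against day 7. With the numbers of the injected groups crossed, chosen after seeing the data, the block gave 7 for uninjected OIR against untreated retina, adding Lamc1 (adjusted p = 0.0356) and Hspg2 (0.0350), and 1, Fn1, for ISOX DUAL (0.0261) and for PBS (0.0421) against untreated retina. ISOX DUAL against PBS, and either injection against uninjected OIR, had 0 members called in every alternative run.

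Over all genes tested, the 115 calls in uninjected OIR against untreated day 17 retina became 12 with array weights, 215 with the crossed block, 0 with only the arrays compared and 0 to 84 with an array left out. The 2454 calls by day became 1111 with array weights and 345 with only the arrays compared. Of 1330 values of single members under an alternative, 1261 kept direction and side of the threshold, 51 lost and 4 gained a call, and 14 changed sign where neither value passed. Many of these values repeat the main difference by construction, so the tally is no measure of robustness. Signals near the negative control median, as of Nid2 and Lama4 at day 7, limit what could be measured there.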
